A study of Mus musculus with 12 samples.

Results

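The genes described here are 4 serum amyloid A genes (Saa1, Saa2, Saa3 and Saa4) and 6 other acute phase genes (Hp, Orm1, Orm2, Orm3, Lcn2 and Apcs), measured in the liver of db/db mice given hydrogen. They are 10 of the 20283 gene symbols on the array, and each is read by 1 of its 39429 probes, found through the RefSeq record of the probe under a current or former symbol. The group was chosen by the measured log2 ratios of these same arrays, because Saa1 had the largest fall after 3 days of MgH2, so the values at 3 days are a description and carry no test. RefSeq lists Saa1 and Saa2 as older symbols of each other; under the current symbols used here, Saa2 had the largest mean fall of all genes at 3 days and Saa1 the second. Saa1 and Saa2 are near-identical genes, and Orm1, Orm2 and Orm3 are related ones. Their transcripts were not compared here, and a probe may bind those of another copy, so values of a single copy are uncertain.

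The mice were male, 8 weeks old by the labels and db/db, a strain with no working leptin receptor that becomes obese and diabetic. All groups, controls included, carried this genotype. MgH2, which releases H2 in the stomach, was given daily by gavage, at a labelled dose of 0.9 mg/kg, for 1, 3 or 7 days, and its control was Mg(OH)2. H2-water at 0.8 mM was drunk for 14 days, and its control was degassed water. Each of the 12 arrays, 3 for each time point, set a pool of RNA from the livers of 3 treated mice, labelled with Cy5, against a Cy3 pool of 3 control mice. No array had the dyes exchanged, and dye bias of a probe is therefore part of its ratio.

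Acute phase proteins are secreted into the blood, mostly by hepatocytes, when interleukin-6 and interleukin-1 signal an injury or infection. Interleukin-6 acts through STAT3, interleukin-1 through NF-kB, and C/EBP factors act with both on the promoters of these genes. The positive acute phase genes then rise, and negative ones such as the gene of albumin fall. Obesity is known for a weak and lasting form of this response, with serum amyloid A coming from the liver and, for Saa3, largely from fat tissue and macrophages.

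Promoters are shown for Saa1 and Saa2, whose ratios ran almost in parallel, and for Orm2, the gene with the smallest adjusted P among the 10 at 7 days. They are RefSeq sequences of GRCm38.p6, from 250 bases before to 50 bases after the start of the gene, in the direction of transcription, and promoters of 8 of the 10 genes were found in that table. Capitals mark the matches to the letters TTGCNNAA, a form of the C/EBP site, and TATAAA, a form of the TATA box, on either strand.
Saa1 (chr7:46742931-46743230, minus strand): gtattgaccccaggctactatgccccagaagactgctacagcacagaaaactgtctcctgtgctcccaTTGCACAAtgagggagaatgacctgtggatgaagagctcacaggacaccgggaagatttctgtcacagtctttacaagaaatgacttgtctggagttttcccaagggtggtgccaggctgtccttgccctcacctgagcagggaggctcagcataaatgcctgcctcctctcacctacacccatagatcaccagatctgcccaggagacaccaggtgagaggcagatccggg
Saa2 (chr7:46751583-46751882, plus strand): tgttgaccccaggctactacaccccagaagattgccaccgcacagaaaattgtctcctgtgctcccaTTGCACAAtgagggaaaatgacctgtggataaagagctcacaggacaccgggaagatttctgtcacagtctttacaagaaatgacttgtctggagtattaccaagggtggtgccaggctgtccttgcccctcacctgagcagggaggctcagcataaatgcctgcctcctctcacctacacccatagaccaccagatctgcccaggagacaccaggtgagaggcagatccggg
Orm2 (chr4:63362199-63362498, plus strand): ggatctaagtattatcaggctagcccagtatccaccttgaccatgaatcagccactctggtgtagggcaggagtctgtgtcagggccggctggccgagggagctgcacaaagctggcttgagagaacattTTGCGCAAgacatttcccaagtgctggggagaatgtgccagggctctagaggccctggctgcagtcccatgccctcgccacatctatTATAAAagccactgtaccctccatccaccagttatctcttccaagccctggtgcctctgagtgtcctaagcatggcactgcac

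The windows of Saa1 and Saa2, which lie next to each other on chromosome 7 on opposite strands, were identical at 287 of 299 aligned bases (96.0%). The C/EBP letters begin at position −182 from the start of Saa1 and at −183 from that of Saa2. The same letters are in the windows of 7 of the 8 genes, against 10.8% of all 32851 promoters in the table. The windows of Orm2 and Orm3, both among the 7, were identical at 264 of 295 aligned bases (89.5%). With Saa1 and Saa2 also near copies, the 7 windows are not separate cases. Of other letters searched on both strands, GGNNNTTCC (NF-kB) is in the window of Saa3 and in 18.5% of all promoters, TTCNNNGAA (STAT) in that of Apcs and in 8.30% of all, and TATAAA in those of Orm2 and Orm3 and in 13.6% of all. No match overlapped a match to another motif. A match describes letters, not a bound site, and other spellings of these sites were not searched.

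All 10 probes were above background in both channels of all 12 arrays. Over all spots, 51.8% to 56.5% were above background in both channels, the scanner software excluded 160 to 244 spots on each array as uneven or outlying, and no spot was saturated. The hepatocyte markers, 10 of 10 above background on every array, added up to 8433 to 13473 parts per 1000000 of a channel's total signal. The control channels of arrays with the same number at 1, 3 and 7 days deviated from their means together, although the labels state no shared control pool. Values at 1 and 7 days are therefore not independent of the contrast used for the choice of the genes. The arrays of 14 days played no part in the choice. They still share any dye bias of a probe with the arrays of 3 days, as all had the same dye order. The P values rest, for each probe, on 1 estimate of the spread between pools within time points. It is shared over all 12 arrays, those of 3 days included.

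**Figure D1:**
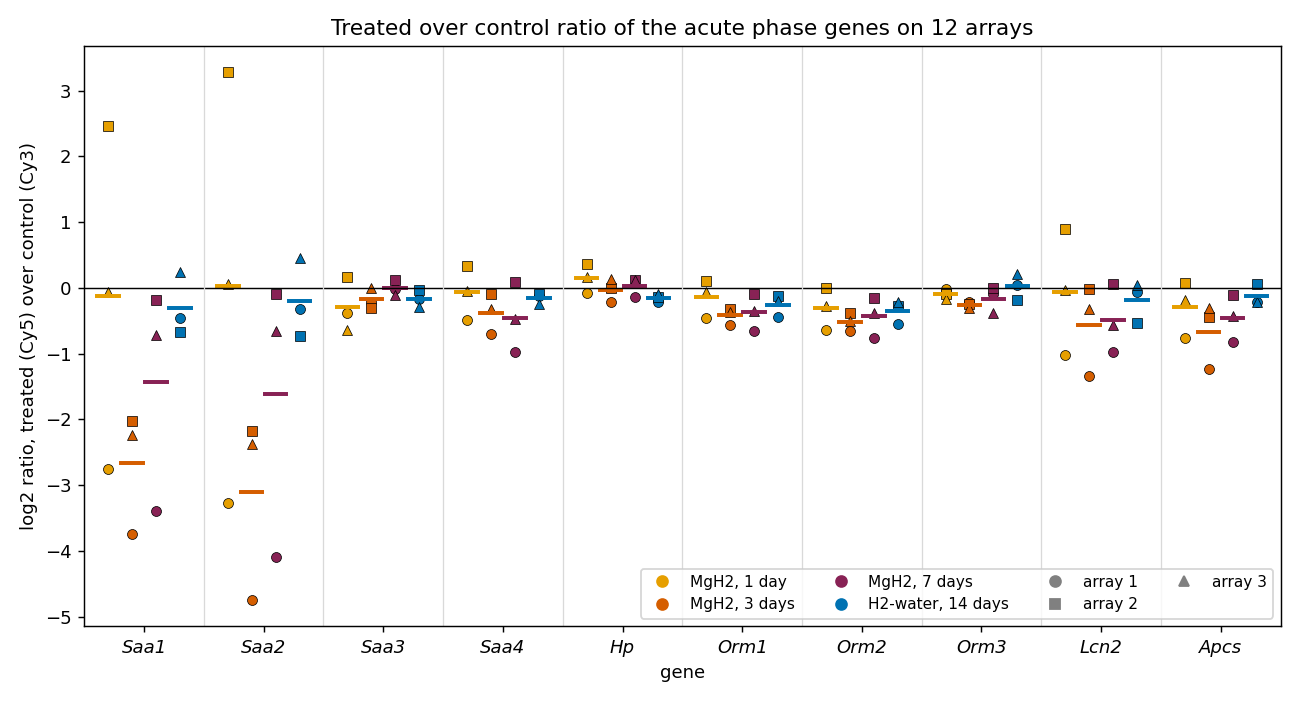
Log2 ratio of treated (Cy5) over control (Cy3) signal for the 10 genes, with 1 point per array, coloured by time point and shaped by array number, and a bar at the mean of 3 arrays. Saa1 and Saa2 span from −4.75 to 3.28, while Hp stays between −0.22 and 0.36.

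After 3 days of MgH2, 9 of the 10 genes were lower than control on all 3 arrays, all but Hp, in a contrast where 26.3% of all probes were lower on all 3. Saa2, an apolipoprotein of high-density lipoprotein that is made in the acute phase, had log2 ratios of −4.75, −2.17 and −2.38 on arrays 1, 2 and 3. These correspond to 26.8-, 4.51- and 5.19-fold lower signals, with a mean of −3.10 ± 1.43 (SD, n = 3). Saa1, its close copy with the same role, had log2 ratios of −3.74, −2.02 and −2.23, with a mean of −2.66 ± 0.94. The genes that came next at 3 days were Cfd, an adipocyte and macrophage protease of complement, at −2.19 and Fasn, the fatty acid synthase, at −1.73. The other members lay well behind, with Apcs at rank 80 by mean fall, Lcn2 at 169, Orm2 at 220, Orm1 at 399 and Hp at 5102.

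At 1 day the same pair of genes had ratios of opposite sign on arrays 1 and 2. The log2 ratios of Saa2 were −3.27, 3.28 and 0.07, and those of Saa1 −2.75, 2.47 and −0.07. Array 1 was low, array 2 high by about as much and array 3 near 0, so the means of 0.03 and −0.12 describe none of the arrays. Among the 19658 probes measured on all 3 arrays at 1 day, Saa2 and Saa1 had the largest and second largest SD, 3.28 and 2.61.

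At 7 days both genes were lower on all 3 arrays, but by very unequal amounts. The log2 ratios of Saa2 were −4.09, −0.09 and −0.65, and those of Saa1 −3.39, −0.18 and −0.72. Array 1 holds most of the fall, and without it the means of −1.61 for Saa2 and −1.43 for Saa1 became −0.37 and −0.45. Their SDs of 2.17 and 1.72 ranked 2 and 5 among 19455 probes.

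At 14 days of H2-water the log2 ratios of Saa2 were −0.32, −0.72 and 0.46, and those of Saa1 −0.46, −0.68 and 0.24. Arrays 1 and 2 were lower and array 3 higher, and the means were −0.19 ± 0.60 and −0.30 ± 0.48. None of these values reached the ratios seen on any of the 3-day arrays.

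The level in each channel, as log2 of its parts per 1000000 of the channel's total, was then read for the controls and the treated pools apart. For Saa2 the control level was 10.31, 10.31 and 10.36 on array 1 of 1, 3 and 7 days. It was 7.12, 8.06 and 7.94 on array 2, and 9.04, 9.29 and 8.88 on array 3. The control levels of the 3 array numbers thus kept their order at each time point, 1 above 3 above 2. The highest and lowest were apart by 2.25 to 3.19. For Saa1 the control levels ranged from 10.26 to 10.31 on array 1, from 7.85 to 8.31 on array 2 and from 9.22 to 9.34 on array 3, again in that order.

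The treated levels of Saa2 were 7.01, 10.36 and 9.07 at 1 day, 5.54, 5.85 and 6.88 at 3 days and 6.26, 7.82 and 8.21 at 7 days. The treated pool of array 2 at 1 day was therefore as high as the highest control pool, and at 3 days all 3 treated pools lay below the lowest control pool. For Saa1 the treated levels were 7.54, 10.28 and 9.11, then 6.50, 6.25 and 7.08, then 6.87, 7.97 and 8.54. At 7 days the treated and control ranges of both genes overlapped. In these pooled tissue samples, fewer cells of a type and less RNA per cell cannot be told apart. The channels of an array are normalized to each other, so the levels of a pair are not independent.

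**Figure D2:**
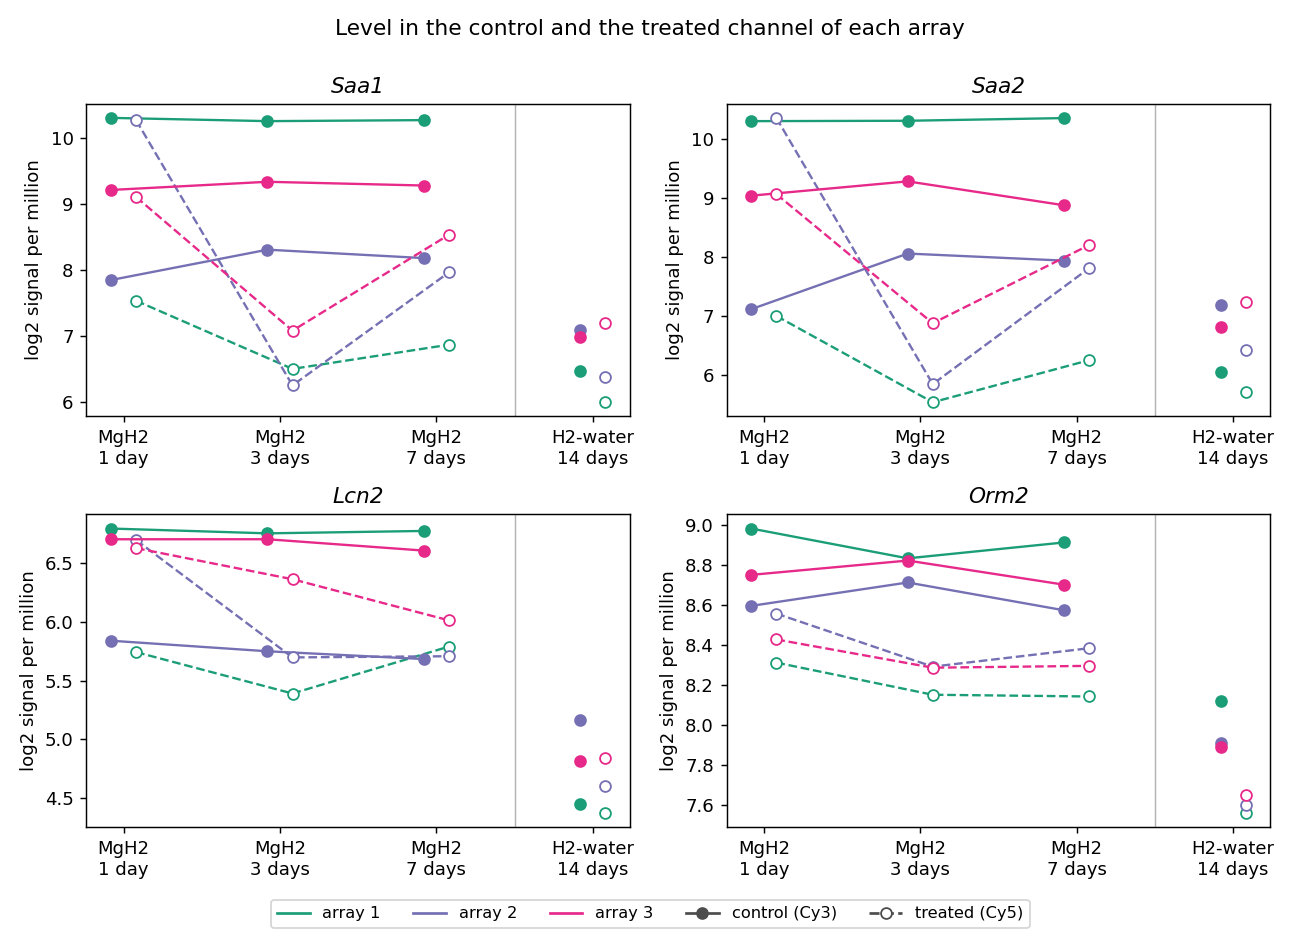
Log2 level (parts per 1000000 of the channel's total signal) of Saa1, Saa2, Lcn2 and Orm2 in the control (filled points, solid lines) and treated (open points, dashed lines) channel, coloured by array number, at each time point. For Saa1 the control levels of array 1 stay between 10.26 and 10.31 at 1, 3 and 7 days, and among the MgH2 arrays the treated levels are lowest at 3 days on each of the 3 array numbers.

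Over the 9 gavage arrays, 99.0% of the spread of the Saa1 control level within time points went with the array number, against a median of 67.5% over all 18394 probes above background on all arrays. The share was 96.5% for Saa2, 99.3% for Saa4, 98.2% for Orm3, 99.6% for Lcn2 and 96.7% for Apcs. In the treated channel the median over all probes was 28.9%, and Saa1 had 54.8% and Saa2 70.3%. These shares are descriptions over 3 array numbers, and the sources used here do not say whether the same control RNA was used at several time points.

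**Figure D3:**
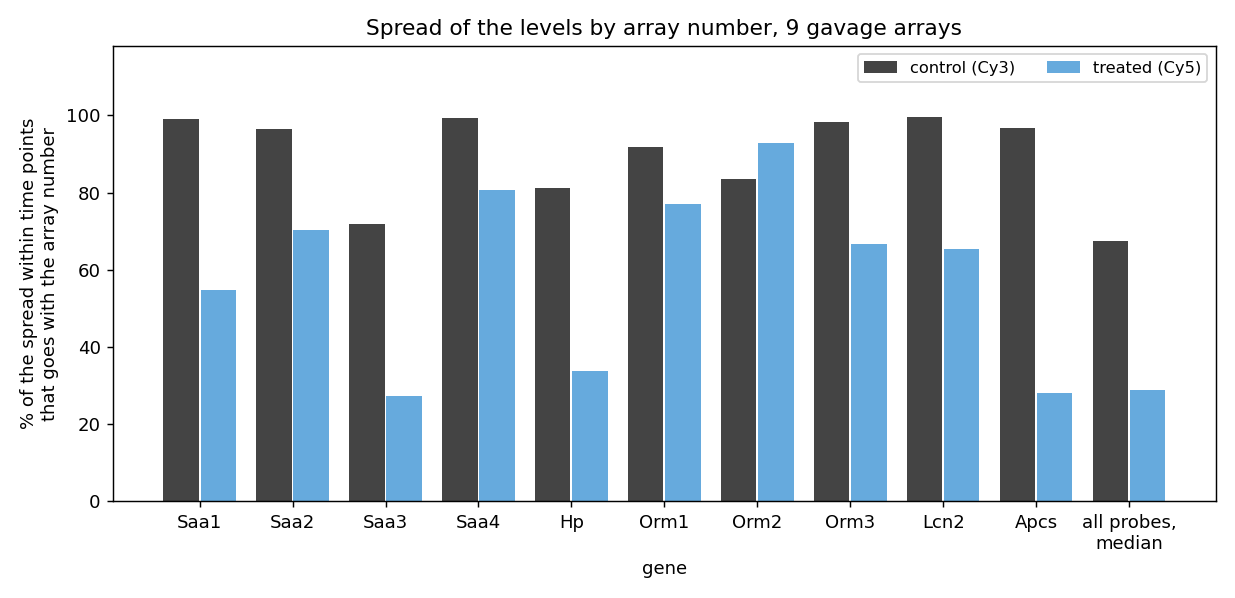
Share of the spread of the level within time points (sum of squares, in %) that goes with the array number, for the control and treated channels of the 9 gavage arrays. Control bars range from 71.8% for Saa3 to 99.6% for Lcn2, and in the treated channel Orm2 is highest with 92.8%.

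The water controls gave lower levels than the gavage controls for most of these genes. All 9 gavage control levels were above all 3 water control levels for 9 of the 10 genes, all but Saa2, and for 20.6% of all probes. As the gavage control levels went with the array number, these 9 levels may not be those of 9 separate pools. For Saa1 the water controls ran from 6.48 to 7.09 and the gavage controls from 7.85 to 10.31. For Lcn2 they ran from 4.45 to 5.16 and from 5.68 to 6.80. The experiments differ in route, control substance, slide and scanner software version, and these cannot be told apart.

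Saa3, the form made largely outside hepatocytes, gave little signal, with levels between 0.16 and 1.23 on the log2 scale. Its log2 ratios were −0.38, 0.16 and −0.64 at 1 day, −0.22, −0.30 and −0.01 at 3 days, −0.01, 0.13 and −0.10 at 7 days and −0.18, −0.03 and −0.29 at 14 days. None of its 12 ratios was as large as the smallest 3-day ratio of Saa1. Saa4, which is made constitutively, had log2 ratios of −0.48, 0.33 and −0.04 at 1 day and −0.70, −0.10 and −0.33 at 3 days. They were −0.97, 0.09 and −0.48 at 7 days, and −0.12, −0.10 and −0.24 at 14 days. Array 1 was the lowest at 1, 3 and 7 days, as for Saa1 and Saa2.

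The Orm genes encode orosomucoids, acid glycoproteins of plasma that bind drugs and lipids. Orm2 had log2 ratios of −0.64, 0.00 and −0.28 at 1 day, −0.66, −0.38 and −0.51 at 3 days, −0.75, −0.15 and −0.38 at 7 days and −0.54, −0.28 and −0.22 at 14 days. It was lower on 11 of the 12 arrays. At each of the 4 time points its 3 treated levels lay below its 3 control levels. The same held for 17.1%, 17.9%, 20.1% and 17.8% of all probes at 1, 3, 7 and 14 days. At 1 day this separation of Orm2 rests on the division by channel totals. On array 2 its levels were 8.56 treated and 8.59 control, while the ratio without that division was 0.00. Orm1 had log2 ratios of −0.45, 0.10 and −0.07 at 1 day, −0.56, −0.32 and −0.37 at 3 days, −0.66, −0.09 and −0.34 at 7 days and −0.45, −0.13 and −0.20 at 14 days. Its treated and control levels did not overlap at 3, 7 and 14 days. Orm3 had means of −0.25 ± 0.04 at 3 days, −0.16 ± 0.20 at 7 days and 0.03 ± 0.20 at 14 days, and its ratios ran from −0.39 to 0.22 over the 12 arrays.

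Lcn2, the gene of lipocalin-2, which binds bacterial siderophores, had log2 ratios of −1.03, 0.90 and −0.04 at 1 day. At 3 days they were −1.34, −0.01 and −0.31, at 7 days −0.97, 0.06 and −0.57 and at 14 days −0.06, −0.53 and 0.05. Its pattern over the arrays of 1 day resembled that of Saa1 at a smaller size, with array 1 low and array 2 high. Apcs, the gene of serum amyloid P, a pentraxin and an acute phase protein of the mouse, had log2 ratios of −0.77, 0.08 and −0.18 at 1 day and −1.24, −0.45 and −0.31 at 3 days. They were −0.82, −0.11 and −0.43 at 7 days and −0.22, 0.05 and −0.21 at 14 days. Hp, the gene of haptoglobin, which binds free haemoglobin, had log2 ratios of −0.07, 0.36 and 0.16, then −0.22, 0.00 and 0.13, then −0.14, 0.12 and 0.13, then −0.21, −0.14 and −0.09. It was the only one of the 10 that was not lower on all 3 arrays at 3 days.

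At 1 day none of the 10 genes passed an adjusted P of 0.05 in limma, in a contrast where 9.39% of all 19660 probes tested did. An unadjusted P under 0.05 was reached by 2 of them, Orm2 with a mean log2 ratio of −0.31 ± 0.13 (SE) and Saa3 with −0.29 ± 0.12. The median over the 10 was −0.10, and 1 of them, Orm3, was lower on all 3 arrays, as were 22.4% of all probes. The intervals were wide for Saa2 and Saa1, from −2.40 to 2.45 (95%) for the first and from −2.01 to 1.78 for the second, so for this pair neither a several-fold rise nor a several-fold fall was detectable with 3 arrays.

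At 7 days 2 of the 10 genes were called lower and none higher, against 29.5% of all 19461 probes called, 14.3% lower and 15.3% higher. Orm2 fell with a mean log2 ratio of −0.43 ± 0.13 (SE, limma, adjusted P = 0.0328), and Orm1 with −0.37 ± 0.12 (limma, adjusted P = 0.0423), each on 3 of 3 arrays. Without array 1 their means were −0.26 and −0.22, and without array 1 or without array 3 neither passed (limma, adjusted P from 0.0995 to 0.266). The fit of the 3 arrays alone also ended both calls (limma, adjusted P = 0.0982 and 0.116), while slide as a random block kept them (limma, adjusted P = 0.0240 and 0.0323). The other 8 genes had adjusted P of 0.104 or more in limma, among them Saa4 at −0.45 ± 0.19, Apcs at −0.45 ± 0.20, Lcn2 at −0.49 ± 0.34 and Saa1 at −1.43 ± 0.85. The 10 genes had a median of −0.44, and 6 of them were lower on all 3 arrays, against 27.9% of all probes.

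At 14 days, the contrast whose arrays played no part in the choice of the genes, none of the 10 passed in limma, against 8.87% of all 20459 probes. Only Orm2 reached an unadjusted P under 0.05, with a mean of −0.35 ± 0.13 (SE, limma, adjusted P = 0.138). Orm1 was at −0.26 ± 0.12 and Hp at −0.15 ± 0.09, with an adjusted P of 0.227 and 0.353 in limma. Under the alternative settings with all replicates kept, the mean of Hp ran from −0.17 to 0.03, so its fall depends on the processing. The median over the 10 was −0.17, and 5 of them, Saa3, Saa4, Hp, Orm1 and Orm2, were lower on all 3 arrays, against 27.7% of all probes. For 4 of these, all but Saa3, treated and control levels did not overlap, as for 17.8% of all probes. For Saa1 the interval ran from −2.22 to 1.62, wide because the fit shares 1 estimate of spread over all 12 arrays, and in a fit of the 3 arrays at 14 days its adjusted P was 0.367 (limma).

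None of the 10 genes differed between time points in limma, where 6.96% of probes did for 7 days minus 1 day, 0.0746% for 14 days minus 1 day and 6.59% for 14 days minus 7 days. Unadjusted P values under 0.05 were found for 0, 1 and 0 of the 10 in these contrasts, the 1 being Hp, with a difference of −0.30 ± 0.12 (SE), lower at 14 days. For Saa1 the difference of 7 days from 1 day was −1.31 with an interval from −3.98 to 1.35. For Saa2 it was −1.63 with an interval from −5.04 to 1.78.

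Since the gavage arrays of the same number deviated together, they were also fitted with the array number as a replicate block. The fit within the 9 gavage arrays was chosen after the data were seen. It includes the arrays of 3 days, which served for the choice of the genes. Among the 9 gavage arrays the block called 7 of the 10 genes lower at 7 days, against 18.6% of all probes called lower: Orm2, Saa4, Orm1, Apcs, Lcn2, Saa1 and Orm3. Saa4 was at −0.45 ± 0.06 (SE, limma, adjusted P = 0.00387), Apcs at −0.45 ± 0.08 (limma, adjusted P = 0.0074), Lcn2 at −0.49 ± 0.13 (limma, adjusted P = 0.0283) and Saa1 at −1.43 ± 0.43 (limma, adjusted P = 0.0448). Saa2, at −1.61 ± 0.51, did not pass (limma, adjusted P = 0.0516). At 1 day Orm2 was called lower at −0.31 ± 0.05 (limma, adjusted P = 0.0239), against 6.97% of all probes. Between the time points, Saa4 was lower at 7 days than at 1 day, with a difference of −0.39 ± 0.09 (limma, adjusted P = 0.0393), against 7.61% of all probes. Without the arrays of number 1 the block called only Orm2 at 7 days (1974 of all 19461 probes called lower), and the means of Saa4, Apcs, Lcn2 and Saa1 became −0.19, −0.27, −0.25 and −0.45. Without number 2 it called 7 genes, with Saa2 in place of Orm3 (1919 of all probes), and Saa4 and Lcn2 were at −0.72 and −0.77. Without number 3 it called Orm2 and Apcs (1151 of all probes), and the mean of Orm3 became −0.05. The calls of Orm2 at 1 day and of Saa4 between 7 days and 1 day were lost without any 1 of the 3 numbers (limma, adjusted P from 0.0976 to 0.167 and from 0.0744 to 0.209). The block takes the spread between the 3 array numbers out of the error, so these tests refer to these pools and not to other mice.

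**Figure D4:**
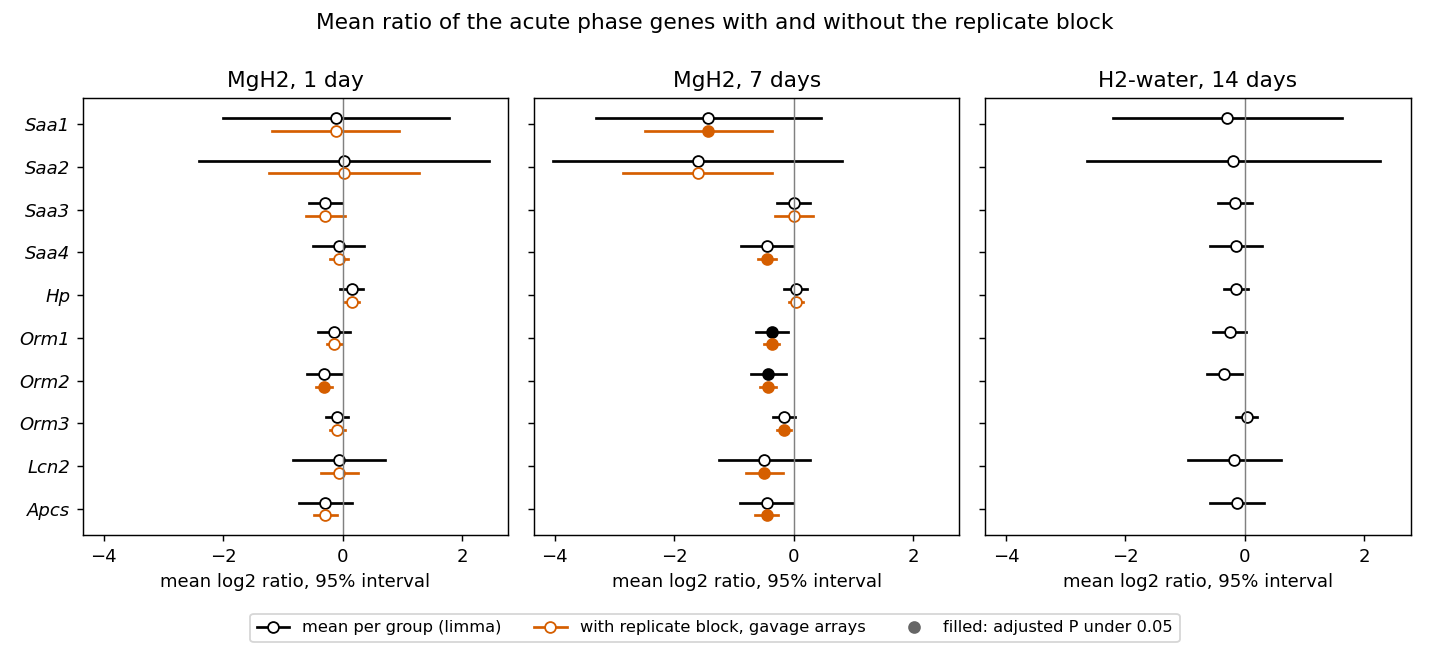
Mean log2 ratio with its 95% interval for the 10 genes at 1, 7 and 14 days, from limma with a mean per group (black) and with the replicate block within the gavage arrays (orange); filled points have an adjusted P under 0.05. At 7 days 2 genes are filled without the block and 7 with it, and the means do not move.

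Over all probes, the share of calls that were higher depended on the scaling of the channels. It was 54.9% at 1 day, 51.7% at 7 days and 55.8% at 14 days with the ratios as deposited, and 30.3%, 41.3% and 40.1% with each channel divided by its total. The call counts of the 10 genes were the same under both.

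Other positive acute phase genes, a list of 30 with 29 tested at 1 and 7 days and 28 at 14 days, are described by their counts. None of them was called at 1 day, where 9.39% of all probes were (5.15% higher and 4.24% lower). At 7 days 2 were higher and 3 lower, against 15.3% and 14.3% of all probes, and at 14 days none was higher and 3 were lower, against 4.95% and 3.92%. The median log2 ratio was −0.08, −0.04 and −0.14 at 1, 7 and 14 days, against 0.00, 0.01 and 0.00 over all genes tested. At 7 days C4b, a complement component, fell with −0.42 ± 0.06 (SE, limma, adjusted P = 0.000927), Hpx, the gene of haemopexin, with −0.37 ± 0.09 and Plg, the gene of plasminogen, with −0.17 ± 0.06. Mt1, a metallothionein, rose with 1.02 ± 0.22 (limma, adjusted P = 0.00746) and Agt, the gene of angiotensinogen, with 0.22 ± 0.06. At 14 days C9, of the membrane attack complex, fell with −0.50 ± 0.10, Serpina3m, a protease inhibitor, with −0.46 ± 0.11 and Cp, the gene of ceruloplasmin, with −0.27 ± 0.06. The median of the list was also lowest on array 1 and highest on array 2 at 1 and 7 days. It was −0.22, 0.13 and −0.04 on the arrays of 1 day, and −0.26, 0.12 and −0.06 on those of 7 days. At 3 days it was −0.22, −0.04 and −0.04. The water arrays of 14 days, not taken as paired with these, had the same order, at −0.24, −0.10 and −0.14.

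Among the 16 negative acute phase genes, all tested, 6 were higher and 1 lower at 7 days, against 15.3% and 14.3% of all probes, with a median of 0.11. At 1 day and at 14 days 1 was higher and 1 lower, against 9.39% and 8.87% of all probes called in either direction. Alb, the gene of albumin, rose with 0.41 ± 0.04 (SE, limma, adjusted P = 0.00013), on 3 of 3 arrays at 0.37, 0.43 and 0.43. Rbp4, the plasma carrier of retinol, rose with 0.37 ± 0.05 and Trf, the gene of transferrin, with 0.27 ± 0.05, while Gc, the vitamin D binding protein, fell with −0.11 ± 0.03. At 1 day Ambp, the precursor of bikunin, rose with 0.35 ± 0.04 and Serpina6, the gene of corticosteroid-binding globulin, fell with −0.50 ± 0.12, and the median was 0.06. At 14 days Apoh rose with 0.17 ± 0.04 and Gc fell with −0.13 ± 0.03, and the median was −0.03. The ratios of Alb at 7 days thus had nearly the same size on all 3 arrays.

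Of the 32 genes that carry the acute phase signal, 26 were tested at 1 and 7 days and 27 at 14 days. At 1 day 1 was higher and 2 lower, a count near the 9.39% of all probes called. At 7 days 3 were higher and 8 lower, against 15.3% and 14.3% of all probes, and at 14 days 2 were higher and 4 lower, against 4.95% and 3.92%. Cebpa, of the C/EBP factors, fell at each of these times, with −0.30 ± 0.04, −0.50 ± 0.04 and −0.23 ± 0.04 (SE). Rela, a subunit of NF-kB, fell with −0.24 ± 0.04, −0.30 ± 0.04 and −0.25 ± 0.04. At 7 days Il6st, the shared signalling chain of the interleukin-6 family, fell with −0.34 ± 0.05 and the kinase Tyk2 with −0.42 ± 0.13, while the receptor chains Il6ra and Il1r1 rose with 0.60 ± 0.11 and 0.77 ± 0.25. Ptpn11, a phosphatase of this pathway, rose at 1 day with 0.16 ± 0.03 and at 7 days with 0.20 ± 0.03. At 14 days Nr3c1, the glucocorticoid receptor, fell with −0.20 ± 0.03 and Tnfrsf1a, a receptor of tumour necrosis factor, rose with 0.17 ± 0.04.

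Of the 14 genes of receptors that bind the proteins of these genes, 9 were tested at 1 day and 8 at 7 and 14 days. None passed in limma at 1 and 14 days, where 9.39% and 8.87% of all probes did, so that none in a list this short is no result about it. At 7 days 5 were lower and 1 higher, against 14.3% and 15.3% of all probes. Fpr2 and Fpr1, formyl peptide receptors of phagocytes of which the first binds serum amyloid A, fell with −0.58 ± 0.13 and −0.53 ± 0.12 (SE, limma, adjusted P = 0.00848 and 0.00941). P2rx7, an ATP receptor of macrophages, fell with −0.44 ± 0.09, and Scarb1, the receptor of high-density lipoprotein in hepatocytes, rose with 0.32 ± 0.05. The median was −0.15 at 1 day, −0.31 at 7 days and −0.07 at 14 days.

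The Kupffer cell and macrophage markers, 12 of 13 above background on all arrays, were lower in sum in the treated channel of each gavage array. Their summed signal ran from 216 to 271 parts per 1000000 in the gavage controls and from 169 to 225 in the MgH2 pools. The log2 ratio of the sums was −0.06, −0.12 and −0.33 at 1 day, −0.35, −0.40 and −0.43 at 3 days, −0.38, −0.38 and −0.50 at 7 days and −0.08, 0.15 and −0.19 at 14 days. The low and high arrays of Saa1 at 1 day were not low and high in these markers, and their part in the ratios of the acute phase genes was not tested. The hepatocyte markers had log2 ratios of sums between −0.05 and 0.25.

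Neutrophil markers, 4 of 11 on the array above background in all channels and Mmp8 and Mmp9 in none, summed to 9.31 to 12.2 parts per 1000000 in the gavage controls, 6.99 to 9.33 in the MgH2 pools and 29.7 to 45.3 in both channels of the water arrays. Lymphocyte markers, 2 of 8 above background in all channels and Cd8a and Ms4a1 in none, summed to 17.8 to 23.3 in the gavage arrays and 67.4 to 92.6 in the water arrays. Adipocyte markers, 5 of 8 above background in all channels and Adipoq, Plin1 and Lep in none, summed to 38.4 to 62.8 in the 12 arrays. Their log2 ratio of sums went with the array number, at 0.35, −0.21 and −0.04 at 1 day, 0.06, −0.51 and −0.30 at 3 days and 0.04, −0.56 and −0.51 at 7 days, highest on array 1, where Saa1 was lowest. Pancreatic acinar markers, 3 of 11 above background in all channels and Prss2 and Try4 in none, summed to 27.6 to 36.1. Their part in the ratios was not tested.

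Over the 12 arrays, the ratios of Saa2 were closest to those of Saa1 (Pearson r = 0.998 across arrays), followed among the members by Orm2 (0.906), Lcn2 (0.891), Orm1 (0.885), Apcs (0.860) and Saa4 (0.847). Hp had 0.632, Orm3 0.292 and Saa3 0.213. Leaving out the 2 arrays farthest from the median of Saa1, array 2 of 1 day and array 1 of 3 days, left r at 0.998 for Saa2, 0.844 for Orm2, 0.827 for Apcs, 0.794 for Orm1 and 0.286 for Orm3. It lowered r to 0.734 for Lcn2, 0.730 for Saa4 and 0.195 for Hp, and turned it to −0.149 for Saa3. These are descriptions over 12 arrays, some of which share a slide, and they carry no P. The gavage arrays of the same number may also share a control pool, which would enter the ratios of each gene alike. The arrays of 3 days, used for the choice of the genes, are among the 12.

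Of the 11550 genes measured on all arrays, the 10 outside the members that were most like Saa1 were Fgl1 (r = 0.943), Itih4 (0.936), Il27 (0.929), Stt3a (0.925), Rab2a (0.921), Copa (0.902), Tfr2 (0.897), Tpd52 (0.897), Serpina10 (0.892) and Hpx (0.886). Fgl1, Itih4 and Hpx are also in the list of positive acute phase genes, and Serpina10 is a protease inhibitor of plasma. Fgl1, a secreted protein of hepatocytes, had log2 ratios of −1.14, 0.38 and −0.07 at 1 day, −1.39, −0.42 and −0.55 at 3 days, −1.10, 0.07 and −0.44 at 7 days and −0.34, −0.32 and −0.01 at 14 days. Its range was the widest of the 10, while Rab2a, a small GTPase of the secretory pathway, stayed between −0.20 and −0.04. Without the same 2 arrays r was between 0.771 for Tpd52 and 0.966 for Il27.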

How the data were processed

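Liver RNA pools of db/db mice were measured on 12 two-color Agilent arrays, 3 per time point. The intensity values are background-subtracted and dye-normalized within each array, as the authors' Feature Extraction software deposited them (10.10.1 per the labels, while the file headers give 10.7.3.1 for the water arrays and 10.10.1.1 for the gavage arrays), with no scaling from array to array. Raw intensities, also deposited, served for the alternative of normexp (offset 50) followed by loess. The log10 ratio in the deposited scanner files served as an alternative, and the deposited log2 table of the series differed from it by at most 1.39e-06 on the log2 scale.

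The log2 ratio of Cy5 over Cy3 was taken from the processed intensities, without control spots and without spots marked as non-uniform or outliers. Gene symbols came from RefSeq records (26761 of 39429 probes), and a gene with several probes was represented by the brightest. Levels are parts per 1000000 of each channel's total over non-control spots. The 12 arrays entered 1 linear model (limma 3.58.1, R 4.3.3) that had 1 mean for each time point, each tested against 0, two-sided, with Benjamini-Hochberg adjustment over all probes above background in both channels on the arrays compared, and a gene was called at an adjusted P under 0.05. The fit was tested on simulated data.

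Replicate numbers pair the gavage arrays, since deviations from the group means correlated within a number over 18394 probes, at r from 0.368 to 0.655 for the ratios and from 0.321 to 0.670 for the control channels (9 pairs each), and from −0.485 to 0.0922 for control channels of different numbers. Ratios of the water arrays correlated with those of gavage arrays of the same number at −0.0409 to 0.288, so they were not taken as paired. The block within the 9 gavage arrays, also fitted without each number, was chosen after seeing the data.

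The genes and the lists were chosen with earlier results of these data known, the lists from general knowledge. From each list, up to 3 genes called in each direction and time point with the largest change were named, with the 10 genes most like Saa1 by correlation. A gene named outside this rule (Cfd, Fasn, and Rela at 7 days) was chosen after its values were seen, and 1 gene that the rule would name and 1 promoter motif searched are not reported here. Alternatives were scaling, background correction, the deposited log ratio, filters, arrays in the fit, blocks, leaving out each replicate, and the methods' t-test on log2 signals. In comparing them, opposite signs counted as no change where both values missed the threshold, and a count within 1.5 times as unmoved. With 12 arrays, the number of pools limits the precision. Columns of the authors' own comparisons and P values per spot were not used.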

Additional observations from a re-analysis of the deposited data

Results flagged for a closer look

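The ratio of Saa4 differed between 7 days and 1 day of MgH2 in the fit with the replicate block within the gavage arrays, by −0.387 on the log2 scale (limma, adjusted P = 0.0393). The log2 ratios were −0.48, 0.33 and −0.04 at 1 day and −0.97, 0.09 and −0.48 at 7 days, so each array number was lower at 7 days. In that fit without replicate number 1, 2 or 3 the difference was −0.34, −0.46 and −0.36 and did not pass (limma, adjusted P from 0.0744 to 0.209). Without the block the same difference had an adjusted P of 0.418, and with the block over all 12 arrays 0.150, in limma.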

How the results depend on the processing

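No tested estimate of the 10 genes changed sign where it passed the threshold with or without an alternative. The number called at 1 day, none, became 1 after normexp and loess (Hp, 0.37, limma, adjusted P = 0.0346), 1 with the replicate block over 12 arrays and 1 with the block within the gavage arrays (both Orm2), and 0 to 1 when 1 replicate was left out (Saa3 at −0.51 without replicate 2). The 2 genes called at 7 days became 0 without the filter on dim probes, 0 with the arrays of the groups compared only, 4 with the block over 12 arrays (18% of all probes called lower), 7 with the block within the gavage arrays, 0 by the adjusted methods' t-test and 0 to 3 without 1 replicate. At 14 days none became 2 with the block (Orm2 and Orm1, 6.64% of all probes called lower) and 4 by the unadjusted methods' t-test (Hp, Orm2, Orm1 and Saa4, 12.6% of all probes called lower). For 7 days minus 1 day none became 1 with the block within the gavage arrays. The 7 genes called at 7 days with the block within the gavage arrays became 1 to 7, and the 1 at 1 day and the 1 for 7 days minus 1 day became 0, when 1 replicate number was left out of that fit. The 3-day value of Hp, −0.03 and not tested, moved to 0.19 after normexp and loess. With all replicates kept, the mean of Hp ran from 0.01 to 0.28 at 7 days and from −0.17 to 0.03 at 14 days. The cause was not tested.

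The count of all probes called at 1 day, 1846, became 714 without the filter, 101 with own arrays, 2967 and 2941 with the blocks, 3031 with slide as a random block, 3218 and 70 by the methods' t-test unadjusted and adjusted, and 423 to 799 without 1 replicate. At 7 days 5748 became 2177 with own arrays, 18 by the adjusted t-test and 3094 to 4059 without 1 replicate. At 14 days 1814 became 501 with own arrays, 2813 with the block, 4234 and 17 by the t-test and 471 to 572 without 1 replicate. For 7 days minus 1 day 1334 became 109 without the filter, 184 with own arrays, 2571 and 2675 with the blocks, 2555 with slide and 1 to 153 without 1 replicate. For 14 days minus 1 day 14 became 90 after normexp and loess, 67 without the filter, 0 with own arrays, 159 with the block, 119 with slide and 0 without 1 replicate. For 14 days minus 7 days 1234 became 6642 without the filter, 420 with own arrays, 2493 with the block, 2123 with slide and 8 to 84 without 1 replicate.

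The count of genes called in the 4 other lists at 1 day, 5, became 12 with channels scaled by their totals, 16 after normexp and loess, 0 with own arrays, 14 and 15 with the blocks, 14 with slide, 14 and 0 by the t-test and 3 to 5 without 1 replicate. At 7 days 29 became 13 with own arrays, 44 with the block within the gavage arrays, 0 by the adjusted t-test and 19 to 21 without 1 replicate. At 14 days 11 became 7 without the filter, 0 with own arrays, 21 with the block, 27 and 0 by the t-test and 1 to 3 without 1 replicate. For 7 days minus 1 day 6 became 1 without the filter, 1 with own arrays, 10 and 15 with the blocks, 14 with slide and 0 to 1 without 1 replicate. For 14 days minus 1 day none became 3 with the block and 1 with slide, and for 14 days minus 7 days 8 became 1 with own arrays, 15 with the block and 0 without 1 replicate.

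Each gene has 1 probe, so the mean over probes gave no other value. Replicate numbers of the water arrays are not taken as pairing them with the gavage arrays, so the block says little about 14 days.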
